A study of Mus musculus with 401 samples.

Results

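Cumulus-oocyte complexes of mice that had received no hyperovulation treatment were each divided into 2 libraries, 1 from the single oocyte and 1 from the pool of cumulus cells that had surrounded it. The samples were chosen by their labels, which name mice at 2 months of age without hyperovulation, and comprised 64 of the 401 libraries of the series: 32 oocytes and the 32 cumulus pools taken off them, from 8 mice with 4 complexes each. All mice were B6D2F1 hybrids (C57BL/6 x DBA/2) fed ad libitum, and both groups shared this strain, age and diet, so the only labelled difference between the groups was the cell type. Library preparation differed with it. By the authors' methods, cumulus samples were diluted to adjust their RNA amount and had another spike-in dilution and reverse transcription mix. Cell type and these steps cannot be told apart. The oocytes were at the germinal vesicle stage, in which a fully grown oocyte is held in the prophase of meiosis, and were taken from ovaries in a medium containing IBMX, an inhibitor of phosphodiesterases that keeps oocytes arrested. An oocyte library held 1 cell and a cumulus library held a pool whose number of cells is not given in the sources used here, so fewer cells and less RNA per cell cannot be told apart in a cumulus library. Complexes were named with a prefix, B1 for the 16 complexes of mice 2moNoH6 to 2moNoH9 and B2 for the 16 of mice 2moNoH10 to 2moNoH13, and no mouse had complexes of both. For the comparison with hyperovulation, 24 complexes from 5 mouse labels at the same age were used, whose donors had been injected with eCG or the CARD HyperOva reagent before collection.

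As background, the fully grown oocyte secretes GDF9 and BMP15, members of the TGF-beta family that keep the surrounding granulosa cells in the cumulus state. In return, cumulus cells feed the oocyte with pyruvate, amino acids and sterols through gap junctions and hold it in meiotic arrest: they make cyclic GMP with the natriuretic peptide receptor NPR2, and this messenger crosses into the oocyte and protects cyclic AMP from the phosphodiesterase PDE3A. The oocyte itself is transcriptionally quiet at this stage and lives on stored maternal messages.

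RamDA-seq, which copies total RNA along whole transcripts with or without a poly(A) tail, gave 1645231 to 2201967 counts per oocyte (median 1986202) and 624462 to 1127709 per cumulus library (median 863415), with 18745 to 20590 and 17281 to 19835 genes detected. Transcripts encoded in mitochondria took 0.413 to 0.72% of the counts of an oocyte and 5.54 to 22.1% of those of a cumulus library. The 10 most abundant genes took 3.95 to 4.76% and 13.3 to 23.5%. Levels are given in CPM, the counts of a gene relative to the library size as scaled by edgeR, as the lowest, highest and median library. Differences are log2 fold changes of the oocyte over cumulus cells. They come from a fit on counts summed per mouse (8 mice) with the mouse as a block. The value after ± is an SE calculated back as the size of the log2 fold change over the square root of the F statistic. It is not a spread between mice. A gene was called at a Benjamini-Hochberg adjusted p under 5%.

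The cell types named by the labels were checked against their markers. All 12 oocyte markers tested were called higher in oocytes, where their summed level was 20259 to 29803 CPM against 0 to 25.9 CPM in cumulus libraries. All 14 markers of cumulus and granulosa cells were called higher in cumulus libraries, with sums of 2470.5 to 11660 CPM against 68.3 to 205 CPM in oocytes. The median oocyte held 1.90% of the cumulus marker level of the median cumulus library, and this share ran from 1.29 to 3.88%. Much of the sum in oocytes came from Nr5a2, whose levels are given below, so the share does not hold for each marker. The sum in oocytes differed by prefix and was 97.2 to 205 CPM (median 138) in prefix B1 and 68.3 to 115 CPM (median 83.4) in prefix B2. Markers of other ovarian cells were not all low. Theca and luteal markers summed to 118 to 320 CPM in cumulus libraries and 1.78 to 6.32 CPM in oocytes. Of 8 tested, 6 were called higher in cumulus cells and 1 in oocytes, against 42.0% and 37.8% of all genes. The androgen enzyme Cyp17a1, which defines theca cells, had a median of 0 CPM in both. Blood markers had 3 of 9 genes with enough counts to test, of which 2 were called higher in cumulus cells and 1 in oocytes. They summed to 9.21 to 82.3 CPM in cumulus libraries and 8.29 to 20.4 CPM in oocytes, and Adgre1, Cd52 and Hbb-bs had no count in any of the 64 libraries. Endothelial and muscle markers summed to 210.3 to 320 CPM in oocytes, above the sum of the cumulus markers there, and 4 of 6 were called higher in oocytes, led by Myh11 (median 154 CPM) and Pecam1 (82.5 CPM), while Cdh5 had a median of 0 CPM and the pericyte marker Rgs5 no count. In cumulus libraries they summed to 1.27 to 124 CPM, and 1 library stood apart: complex B1F06 of mouse 2moNoH9 had 124 CPM against at most 21 CPM elsewhere, and the lowest sum of cumulus markers. No oocyte resembled a cumulus library: over 16819 genes the correlation of an oocyte with a cumulus library was at most 0.367, against at least 0.969 between 2 oocytes and at least 0.860 between 2 cumulus libraries.

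**Figure D1:**
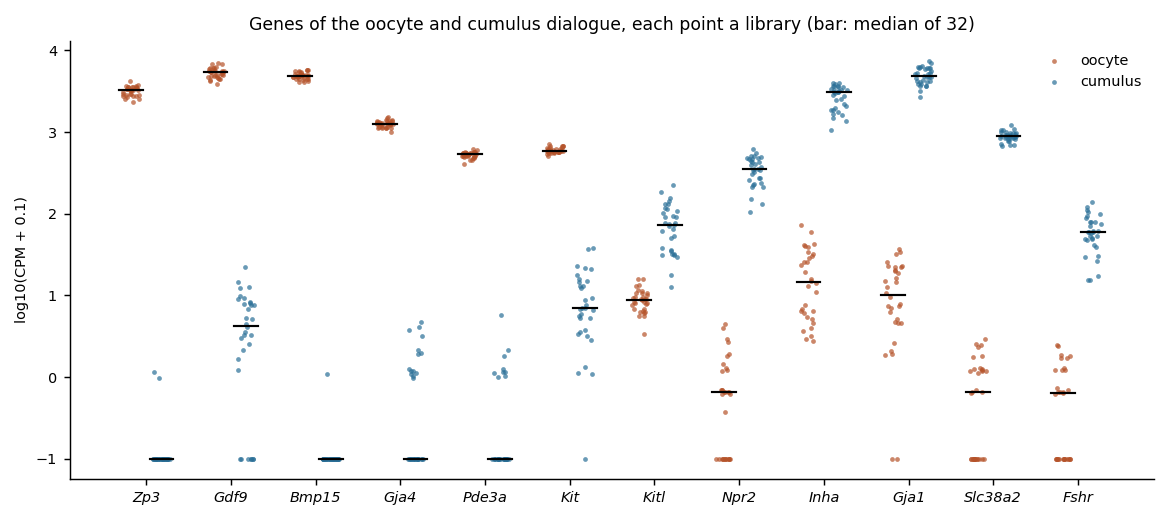
Level of 12 genes in each oocyte (orange) and each cumulus library (blue), as log10(CPM + 0.1) on the vertical axis, with genes along the horizontal axis and a bar at the median of 32 libraries. The egg coat, ligand and connexin genes at the left lie between 2356 and 6945 CPM for Zp3, Gdf9 and Bmp15 in oocytes, and the order of the colours is turned for Kitl, Npr2, Inha, Gja1, Slc38a2 and Fshr.

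Across the whole transcriptome, 23866 of 29901 genes tested (79.8%) differed, 11296 higher in oocytes (37.8%) and 12570 higher in cumulus cells (42.0%). With a difference of at least 2-fold as well, 9763 genes were higher in oocytes (32.7%) and 11194 in cumulus cells (37.4%). The lowest oocyte lay above the highest cumulus library for 4702 genes (15.7%), and the reverse held for 3053 genes (10.2%). The median log2 fold change of all genes was -0.14, so the median of a gene list is read below against this value. Its counts are to be read against the shares of all genes, 37.8% and 42.0% called and 15.7% and 10.2% without overlap. Without scaling between libraries the median moved by -0.46 to -0.60, and a difference smaller than that depends on the scaling.

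Genes that carried the dialogue between both cells were almost absent from the other. Zp3, an egg coat glycoprotein that binds sperm, ranged over 2356 to 4200.4 CPM (median 3254) in oocytes and 0 to 1.07 CPM (median 0) in cumulus libraries, with a log2 fold change of 15.27 ± 0.21. Bmp15 was at 4094 to 5731 CPM (median 4868) in oocytes and 0 to 0.983 CPM (median 0) in cumulus libraries, 16.55 ± 0.21 on the log2 scale. Gja4, which encodes connexin 37 on the oocyte's side of the gap junction, was at 1009 to 1509.5 CPM (median 1264) and 0 to 4.59 CPM (median 0). In each of these genes the ranges were far apart, and all 32 complexes had the higher value in the oocyte. On the cumulus side, Fshr, the receptor of follicle-stimulating hormone, was at 0 to 2.37 CPM (median 0.535) in oocytes and 15.2 to 139 CPM (median 59.3) in cumulus libraries (-6.43 ± 0.29). Npr2 was at 0 to 4.42 CPM (median 0.554) and 106 to 611 CPM (median 355), and the log2 fold change was -8.47 ± 0.31. Gja1, encoding connexin 43 that joins cumulus cells to each other, was at 0 to 36.5 CPM (median 10.1) and 2692 to 7469 CPM (median 4804) (-8.66 ± 0.41). The cumulus library of each complex exceeded its oocyte for these genes as well.

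The 250 bases upstream of the transcription start of these 6 genes, from RefSeq on GRCm38.p6, are shown as the control regions of the dialogue genes just described. Each reads 5′ to 3′ on the strand of its gene, ending at the base before the start, with the E box CANNTG, the core that basic helix-loop-helix factors such as FIGLA recognise, in capitals. The window of Zp3 is chr5:135979855-135980104 on the plus strand, Bmp15 at chrX:6320725-6320974 on the minus strand, Gja4 at chr4:127314040-127314289 on the minus strand, Fshr at chr17:89200676-89200925 on the minus strand, Npr2 at chr4:43631685-43631934 and Gja1 at chr10:56377050-56377299, both on the plus strand.
Zp3: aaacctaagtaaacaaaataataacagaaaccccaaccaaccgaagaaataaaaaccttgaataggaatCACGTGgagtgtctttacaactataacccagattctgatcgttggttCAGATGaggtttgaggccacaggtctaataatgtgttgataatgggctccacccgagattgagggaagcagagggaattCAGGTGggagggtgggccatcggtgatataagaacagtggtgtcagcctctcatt
Bmp15: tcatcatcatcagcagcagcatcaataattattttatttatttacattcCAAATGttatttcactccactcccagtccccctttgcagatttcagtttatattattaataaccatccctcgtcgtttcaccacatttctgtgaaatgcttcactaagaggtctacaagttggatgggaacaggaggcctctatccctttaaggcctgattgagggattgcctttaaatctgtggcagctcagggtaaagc
Gja4: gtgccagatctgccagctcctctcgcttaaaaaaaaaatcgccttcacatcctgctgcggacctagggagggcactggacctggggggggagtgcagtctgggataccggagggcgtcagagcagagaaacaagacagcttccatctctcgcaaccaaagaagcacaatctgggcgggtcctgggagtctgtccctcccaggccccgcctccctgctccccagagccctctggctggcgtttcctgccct
Fshr: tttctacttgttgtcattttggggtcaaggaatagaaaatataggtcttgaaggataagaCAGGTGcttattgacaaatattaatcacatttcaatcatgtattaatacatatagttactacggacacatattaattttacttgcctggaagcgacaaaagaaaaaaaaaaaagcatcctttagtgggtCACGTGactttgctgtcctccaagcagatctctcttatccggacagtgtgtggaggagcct
Npr2: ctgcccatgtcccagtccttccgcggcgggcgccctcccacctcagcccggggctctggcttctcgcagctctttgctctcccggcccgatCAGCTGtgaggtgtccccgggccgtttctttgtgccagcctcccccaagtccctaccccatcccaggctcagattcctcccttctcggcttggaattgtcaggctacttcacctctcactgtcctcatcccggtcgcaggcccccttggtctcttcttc
Gja1: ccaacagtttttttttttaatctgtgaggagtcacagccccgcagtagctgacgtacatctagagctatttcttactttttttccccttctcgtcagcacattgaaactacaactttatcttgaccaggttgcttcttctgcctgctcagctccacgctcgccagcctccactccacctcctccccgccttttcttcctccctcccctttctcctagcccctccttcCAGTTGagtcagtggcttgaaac

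Zp3 held 3 E boxes, Fshr 2, Bmp15, Npr2 and Gja1 1 each and Gja4 0. In Gja1 the E box overlapped TGAGTCA, the site read by FOS and JUN dimers, which lay 19 to 13 bases before the start. Searched on both strands, CANNTG was in 66.2% of 32536 promoters of the same length, in 63.4% of those of genes at least 2-fold higher in oocytes and in 60.5% of those at least 2-fold higher in cumulus cells. TAATTG, a core read by homeobox factors, was in 6.3% and 4.13% of these promoters, in 5.32% of those of all genes tested and in 7.18% of all. TGAGTCA was in 3.67% and 4.01%, and AGGTCA, the half-site of nuclear receptors, in 12.5% and 12.6%. A match describes letters and not a bound site.

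Of the 6 ligands and receptors of the oocyte's own signal that had enough counts, 5 were called higher in oocytes and 1 in cumulus cells. Gdf9 was at 3904 to 6945 CPM (median 5407) in oocytes and 0 to 22 CPM (median 4.16) in cumulus libraries, a log2 fold change of 10.23 ± 0.27. Fgf8, which stimulates glycolysis in cumulus cells together with BMP15, had medians of 95.6 and 0 CPM (10.20 ± 0.26). Kit, the receptor through which the oocyte hears KIT ligand, was at 512 to 714 CPM (median 584) and 0 to 37.4 CPM (median 6.92) (6.07 ± 0.21). Bmp6 was less exclusive, with medians of 278 and 49.2 CPM (2.57 ± 0.12). Tdgf1, a co-receptor of NODAL, was the exception with 0 against 2.96 CPM (-6.62 ± 0.45). Per length, the median oocyte held 2343 RPKM (reads scaled to gene length and library size) of Gdf9, 2199 of Zp3 and 1413 of Bmp15.

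The receptors and signal carriers for these ligands were found in both cells. Of 16 genes, 5 were called higher in oocytes, 7 in cumulus cells and 4 were not called, against 37.8% and 42.0% of all genes called in these directions, and the list's median was 0.04. Bmpr2, the type II receptor shared by GDF9 and BMP15, was at 314 to 447 CPM (median 381) in oocytes and 719.9 to 3248 CPM (median 2199) in cumulus libraries (-2.21 ± 0.16). Tgfbr1, the type I receptor of GDF9 also called ALK5, leaned the same way with medians of 47.1 and 203 CPM (-2.13 ± 0.17). Bmpr1b, the type I receptor of BMP15, had medians of 289 and 320.2 CPM and was not called (0.03 ± 0.11), and Bmpr1a (0.04 ± 0.10) and Smad4 (0.13 ± 0.11) were not called either, with all 3 below 0 when library totals replaced the scaling. Among the SMAD carriers, Smad3 and Smad2 leaned to the oocyte, with medians of 575 and 74.1 CPM (3.12 ± 0.09) and 111 and 38.9 CPM (1.65 ± 0.10). So did Acvr1b, the activin receptor ALK4, with 139.8 and 19.4 CPM (2.84 ± 0.14). Of the carriers of the BMP branch, Smad5 was higher in cumulus cells (-1.82 ± 0.11) and Smad1 was not called (0.25 ± 0.13). The FGF receptors Fgfr1 (1.10 ± 0.17) and Fgfr2 (2.37 ± 0.14) were higher in oocytes.

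The system that holds meiosis arrested was divided between the cells. Of 18 genes for arrest and contact, 7 were called higher in oocytes and 11 in cumulus cells, against 37.8% and 42.0% of all genes. The share in oocytes was near that of all genes, so the division is described by gene. Pde3a, which breaks down cyclic AMP in the oocyte, was at 406 to 618 CPM (median 534) in oocytes and 0 to 5.67 CPM (median 0) in cumulus libraries (10.18 ± 0.25). Gpr3, the receptor that keeps cyclic AMP high in the oocyte, had medians of 122 and 2.87 CPM (5.53 ± 0.17). Gpr12, its relative, was at 0.557 to 8.36 CPM (median 2.63) in oocytes and was at least 28.5-fold higher there, by a floor of 3 counts over the cumulus libraries. Cumulus cells held the other side: besides Npr2, its ligand Nppc had medians of 0.552 and 6.63 CPM (-3.62 ± 0.30), and Impdh1 and Impdh2, which make guanine nucleotides for cyclic GMP, differed by -4.69 ± 0.14 and -4.89 ± 0.18. Prkg1, the kinase that cyclic GMP activates, was higher in oocytes, with medians of 36.4 and 0 CPM (7.73 ± 0.32). Pde5a, which breaks down cyclic GMP, was low in both (3.11 and 4.7 CPM, -0.63 ± 0.28), and its call was lost in DESeq2. Rgs2, which damps G protein signals, had medians of 354 and 319.8 CPM, and its log2 fold change of 0.33 ± 0.13 turned to -0.16 with library totals and to -0.08 in the complexes of prefix B2.

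Contact molecules were split in the same manner. Cdh1, the cadherin of the oocyte membrane, was at 459.5 to 687 CPM (median 558) in oocytes and 0 to 1.08 CPM (median 0) in cumulus libraries (13.43 ± 0.23), and Cdh2, the cadherin of granulosa cells, had medians of 38.9 and 129 CPM (-1.66 ± 0.11). Kitl, the ligand of KIT, was at 3.27 to 15.8 CPM (median 8.81) and 12.6 to 222 CPM (median 73.7) (-2.89 ± 0.24). The ranges of Kitl met, but the cumulus library exceeded its oocyte in all 32 complexes.

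Hormone receptors and steroid enzymes belonged mostly to cumulus cells. Of 11 receptors, 9 were called higher there and 2 in oocytes, with a median of -3.48. Igf1r had medians of 49.9 and 665 CPM (-3.58 ± 0.09) and Insr 11.2 and 154 CPM (-3.48 ± 0.15). Lhcgr, the receptor of luteinizing hormone that mural granulosa cells acquire before ovulation, had a median of 0 CPM in both, at 0 to 19.2 CPM (median 0) in cumulus libraries. Nr5a2, the receptor LRH-1 that granulosa cells need for ovulation, was at 45.9 to 92.5 CPM (median 65.8) in oocytes and 121 to 754 CPM (median 360.2) in cumulus libraries (-2.31 ± 0.17). The estrogen receptors parted, with Esr2 higher in cumulus cells (-1.35 ± 0.11) and Esr1 higher in oocytes (0.55 ± 0.11), where its call was lost with library totals. Of 12 genes of steroid synthesis, 9 were called higher in cumulus cells and 3 in oocytes. Hsd17b1, which turns estrone into estradiol, was at 0 to 27.5 CPM (median 2.26) and 140.3 to 971 CPM (median 485) (-6.44 ± 0.32). Hsd3b1 had medians of 1.17 and 57.5 CPM (-5.77 ± 0.18) and Star, which carries cholesterol into mitochondria, 0.567 and 15 CPM (-4.34 ± 0.35). Cyp19a1, the aromatase that makes estrogen, was at 8.99 to 22.8 CPM (median 14) in oocytes and 0 to 228 CPM (median 22.5) in cumulus libraries, and the ranges overlapped (-1.19 ± 0.23).

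Peptide hormones of granulosa cells were largely those of cumulus libraries. Of 10 genes for inhibin, activin, AMH and their partners, 7 were called higher in cumulus cells and 1 in oocytes. Inha, the alpha subunit of inhibin, was at 2.67 to 73.2 CPM (median 14.5) in oocytes and 1058 to 4034 CPM (median 3053) in cumulus libraries (-7.27 ± 0.33). Per length it reached a median of 2251 RPKM in cumulus libraries, against 549 for Gja1 and 392 for Hsd17b1. Fst, the antagonist of activin, had medians of 0.616 and 654 CPM (-8.89 ± 0.33), Amh 1.16 and 160.4 (-6.79 ± 0.29) and its receptor Amhr2 0.576 and 125 (-6.89 ± 0.28). The beta subunits Inhba (-8.34 ± 0.33) and Inhbb (-7.92 ± 0.35) were also called, but their cumulus levels spread widely, from 1.98 to 3767 CPM for Inhbb.

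Genes of cumulus expansion, the swelling of the complex that follows the ovulatory surge, were mostly silent where they define the response. Of 13 genes, 9 were called higher in cumulus cells, 3 in oocytes and 1 was not called. Has2, which makes the hyaluronan of the expanding matrix, had medians of 0.552 and 1.9 CPM (-2.17 ± 0.33), Ptgs2, the inducible cyclooxygenase, 1.69 and 2.55 CPM without a call (-0.86 ± 0.44), and Tnfaip6, the hyaluronan-binding partner, 0 and 3.04 CPM (-7.01 ± 0.42). Ptx3, which cross-links that matrix, had a count in 5 cumulus libraries and 0 oocytes. The ligands Areg and Ereg had too few counts to test. Other members were abundant in the cumulus libraries of these mice, whose cycle stage is not given by the labels. The protease Adamts1 was at 68.5 to 248 CPM (median 143) and at least 2695-fold higher than in oocytes. Vcan, its proteoglycan substrate, was at 69.8 to 1156 CPM (median 505) (-9.16 ± 0.30). Egfr, the receptor of these ligands, had medians of 235 in oocytes and 181 CPM in cumulus libraries (0.38 ± 0.12), a sign that library totals turned to -0.11.

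Transcription factors of each lineage followed their cells. Of 12 granulosa factors, 9 were called higher in cumulus cells, 2 in oocytes and 1, Foxo1, was not called (-0.25 ± 0.18). Wt1 had medians of 0 and 95.7 CPM (-8.54 ± 0.26), Runx1 0 and 128 (-8.28 ± 0.32), Nr5a1, also called SF-1, 0.544 and 62 (-6.50 ± 0.21), and Foxl2, which guards granulosa identity, 0 and 13.5 (-5.38 ± 0.33). Of 15 oocyte factors, 14 were called higher in oocytes, and 10 of them had no count in any cumulus library. Nobox was at 423 to 647 CPM (median 521) in oocytes and 0 to 1.15 CPM (median 0) in cumulus libraries (12.69 ± 0.23). Lhx8 was at least 2616-fold higher and Figla, which drives the zona genes, at least 232-fold higher, each by the same floor and with no count in cumulus libraries. Zfp57, which protects imprinted marks, had a median of 1699 CPM in oocytes (12.87 ± 0.21). Taf4b alone was called higher in cumulus cells, with medians of 59.4 and 251 CPM (-1.99 ± 0.13).

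The oocyte's own stores gave the highest list medians. All 10 genes of the subcortical maternal complex, the lattice that an egg needs for cleavage, and all 9 of the zona and egg surface were called higher in oocytes. Padi6 was at 2685 to 4374 CPM (median 3487) in oocytes and 0 to 0.994 CPM (median 0) in cumulus libraries (15.38 ± 0.22). Nlrp14, which showed the greatest fitted difference of all genes tested, was at 3835 to 5956 CPM (median 4734) and at least 51399-fold higher, and Nlrp5, also called MATER, at least 16229-fold higher. Zbed3 was found in both, with medians of 7397 and 16.7 CPM (9.01 ± 0.17), and per length it was the most abundant of the oocyte genes named here (median 2975 RPKM). Astl, the protease ovastacin that hardens the egg coat after fertilization, had medians of 385 and 0 CPM (11.44 ± 0.24), and the secreted Oosp1 was at least 11094-fold higher in oocytes. Izumo1r, the egg's receptor for sperm IZUMO1, had a median of 388 CPM in oocytes (12.88 ± 0.23), and Cd9, which also serves fusion, had 91 in oocytes and 6.39 in cumulus libraries (3.91 ± 0.15).

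Of 18 genes that store, silence or clear maternal messages, 14 were called higher in oocytes and 4 in cumulus cells, and in none did the ranges overlap. Over all genes, the oocytes lay wholly above for 15.7% and the cumulus libraries for 10.2%. Zar1 had medians of 1349 and 0 CPM (12.04 ± 0.24), Btg4, which recruits the deadenylase after meiosis resumes, 948 and 0 (12.24 ± 0.24), Cpeb1 1273 and 0 (10.86 ± 0.27) and Ybx2 249 and 0 (9.21 ± 0.32). The 4 exceptions were Tut4, Zfp36l2, Ddx6 and Tut7. Tut4, a uridylating enzyme that marks messages for decay, was at 0 to 6.53 CPM (median 1.19) in oocytes and 300.1 to 914 CPM (median 567) in cumulus libraries (-8.30 ± 0.27). Its paralog Tut7 differed by -2.08 ± 0.11, the decay factor Zfp36l2 by -2.92 ± 0.11 and the helicase Ddx6 by -2.33 ± 0.10.

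Genes for the return to meiosis were mostly in the oocyte: of 23, 20 were called higher there, 2 in cumulus cells and 1 was not called. Mos, the kinase of the egg's MAP kinase pathway, was at 591 to 925 CPM (median 686) in oocytes and at least 7574-fold higher. Wee2, the oocyte form of the kinase that inhibits CDK1, had medians of 629 and 0 CPM (13.60 ± 0.23), and the somatic Wee1 26.9 and 52.1 (-0.44 ± 0.15). Cdk1 itself had 125 and 91.2 CPM (0.56 ± 0.11), and library totals lost the call of Cdk1, as the complexes of prefix B2 alone and the fit without mouse 2moNoH8 did that of Wee1. Ccnb1 had 743 and 64 CPM (3.68 ± 0.16), Ccnb3 was at least 714-fold higher, and Plk1 differed by 3.55 ± 0.20. Of 18 genes of cohesin and its guards, 11 were called higher in oocytes and 6 in cumulus cells, against 37.8% and 42.0% of all genes. The meiosis-specific subunits were low in the oocyte: Smc1b had a median of 9.33 CPM (2.68 ± 0.25), Stag3 6.00 (3.0 ± 0.31), Rad21l 1.69 (at least 20.2-fold higher), and Rec8 was at 0 CPM in all 32 oocytes and 0 to 6.51 CPM (median 0.964) in cumulus libraries. Meikin, which guards centromeric cohesin, was at 5.53 to 27 CPM (median 16.6) in oocytes, at least 171-fold higher. The mitotic Smc1a (-0.45 ± 0.12) and Pds5a (-2.88 ± 0.09) leaned to cumulus cells, and Pttg1, the securin, to oocytes (4.42 ± 0.24).

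Enzymes of DNA methylation were divided between the cells, also within families. Of 13 genes, 9 were called higher in oocytes, 3 in cumulus cells and 1 was not called, against 37.8% and 42.0% of all genes called in these directions. Dnmt1 was at 4218 to 6160.2 CPM (median 5195) in oocytes and 84 to 252 CPM (median 185) in cumulus libraries (4.98 ± 0.10), and per length it had a median of 630 RPKM in oocytes. Tet3, the dioxygenase that acts on the paternal genome after fertilization, had medians of 2211 and 114 CPM (4.37 ± 0.08), and its relatives Tet1 (7.93 and 95.5 CPM, -3.38 ± 0.11) and Tet2 (10.1 and 101 CPM, -3.18 ± 0.13) were higher in cumulus cells. Uhrf1, which brings DNMT1 to DNA, was higher in oocytes (3.19 ± 0.13) and Uhrf2 in cumulus cells, with medians of 3.18 and 132 CPM (-5.20 ± 0.14). Dnmt3l, the cofactor of de novo methylation in growing oocytes, had medians of 163 and 0 CPM (12.88 ± 0.29), and Trim28 was not called (-0.14 ± 0.08). In the small RNA pathway, where mouse oocytes rely on endogenous siRNAs, 10 of 16 genes were called higher in oocytes and 5 in cumulus cells. Dicer1 had medians of 964 and 123 CPM (3.14 ± 0.11), Ago2 63 and 288 (-2.05 ± 0.10) and Ago1 5.53 and 114 (-3.84 ± 0.15). Mael and Piwil1 of the piRNA pathway were at least 1856-fold and at least 539-fold higher in oocytes.

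Replication and proliferation genes were less sharply divided. Of 31 genes of DNA replication, 18 were called higher in oocytes, 8 in cumulus cells and 5 were not called (median 0.71), and of 15 for proliferation and D cyclins 3, 8 and 4 (median -0.68). Of all genes, 37.8% were called higher in oocytes and 42.0% in cumulus cells. Ccnd2, the cyclin D of granulosa cells, was at 0.657 to 213 CPM (median 19.2) in oocytes and 402 to 1379 CPM (median 604) in cumulus libraries (-4.48 ± 0.31), and its partners Cdk4 (-3.07 ± 0.09) and Cdk6 (-4.98 ± 0.13) were higher in cumulus cells as well. Mki67, a marker of dividing cells, had medians of 302 and 298 CPM and was not called (0.15 ± 0.11), and library totals gave -0.34.

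Metabolic genes were divided by subunit and by step (as background, cumulus cells run glycolysis for the oocyte). Of 18 genes of glycolysis, 14 were called higher in cumulus cells, 2 in oocytes and 2 were not called (median -2.89). Lactate dehydrogenase was split by subunit: Ldha was at 0 to 48.3 CPM (median 6.28) in oocytes and 442 to 2422 CPM (median 1016) in cumulus libraries (-6.87 ± 0.32), and Ldhb was at 2009 to 3164 CPM (median 2653) and 53.2 to 239.8 CPM (median 145) (4.38 ± 0.10). Hk2 had medians of 6.34 and 119 CPM (-4.14 ± 0.14) and the glucose carrier Slc2a1 129.9 and 84.1 (0.63 ± 0.14), with its call lost with library totals and in the complexes of prefix B1. Of 23 genes of cholesterol synthesis and uptake, 15 were called higher in cumulus cells and 5 in oocytes. Mvk, a kinase of the mevalonate pathway, differed by -4.93 ± 0.21. Hmgcs1 (1.64 ± 0.17), Fdft1 (3.15 ± 0.14) and Insig1 (2.04 ± 0.13) were higher in oocytes instead. Of 14 amino acid carriers, 9 were called higher in cumulus cells and 3 in oocytes. Slc38a2 was at 0 to 2.83 CPM (median 0.558) and 672 to 1216 CPM (median 888) (-10.02 ± 0.26), its relatives Slc38a3 and Slc38a1 differed by -8.75 ± 0.30 and -6.93 ± 0.27, and the glycine carrier Slc6a9, used by oocytes to regulate their volume, had medians of 613 and 27.2 CPM (4.63 ± 0.17).

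Of 23 matrix genes, 8 were called higher in oocytes and 12 in cumulus cells, against 37.8% and 42.0% of all genes. Lama1 was at 5.74 to 27.8 CPM (median 12.8) in oocytes and 587 to 5070.1 CPM (median 1567) in cumulus libraries (-6.70 ± 0.15), and Lamb1, its partner chain in laminin, at 1968 to 2684 CPM (median 2328) and 18.3 to 96.2 CPM (median 39.2) (5.94 ± 0.15). Itga6, a subunit of the laminin receptor, was higher in oocytes (3.63 ± 0.26). Of 12 genes of insulin-like growth factors, 8 were called higher in cumulus cells and 2 in oocytes. Igf1 had medians of 0.612 and 316 CPM (-7.51 ± 0.27), and Irs2, an adaptor of its receptor, 0 and 151 (-9.01 ± 0.20).

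Immediate early genes, which cells switch on within minutes of a stimulus or of handling, were called higher in cumulus cells for 21 of 22. Fos was at 0 to 34.3 CPM (median 5.4) in oocytes and 29.7 to 4069 CPM (median 1705) in cumulus libraries (-7.61 ± 0.39), Fosb had medians of 5.25 and 1538 CPM (-7.94 ± 0.17), Jun 1.71 and 800.4 (-7.84 ± 0.32) and Egr1 63.1 and 1571 (-4.13 ± 0.22). The phosphatase Dusp1 alone was higher in oocytes, with medians of 166 and 33.1 CPM (2.04 ± 0.41). The list summed to 1633 to 17094 CPM in cumulus libraries and 235 to 508 CPM in oocytes, and the part of tissue handling in these levels was not tested.

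All 15 long noncoding RNAs tested were called higher in cumulus cells. Xist, which coats the inactive X chromosome, was at 0 to 1.63 CPM (median 0) in oocytes and 989 to 2442 CPM (median 1449) in cumulus libraries (-12.83 ± 0.24), and both X chromosomes are active in an oocyte as background. The protein-coding genes of the X chromosome had a median log2 fold change of -0.01 and those of the autosomes 0.36. Neat1, the scaffold of paraspeckles, had medians of 0 and 771 CPM (-13.12 ± 0.29), Malat1 4.04 and 4041 (-9.58 ± 0.24), and the imprinted Kcnq1ot1 (-7.84 ± 0.15) and Rian (-8.10 ± 0.15) followed. Not every noncoding class leaned this way, since lincRNAs as a class had a median of 2.03, with 850 of 1782 called higher in oocytes and 505 in cumulus cells. Of 397 small nucleolar RNAs, 9 were called higher in oocytes and 329 in cumulus cells (median -3.78). All 13 mitochondrial messages were called higher in cumulus cells, between -2.38 ± 0.25 for mt-Nd3 and -4.79, with mt-Co1 at 317 to 768 CPM (median 556) and 3796 to 17385 CPM (median 6225). Of 79 cytoplasmic ribosomal proteins, 69 were called higher in cumulus cells and 7 in oocytes (median -1.19), and of 61 core histones 31 and 15 (median -0.52). More than 20% of the nonzero values were not whole for 77 and 59 of these genes, since their reads were shared between copies, and their values are uncertain.

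Among all genes called with a mean of at least 10 CPM, the same direction in all 32 complexes and more than 3 counts in the lower cell type, the 10 largest differences towards the oocyte were in Zp2 (14.22 ± 0.32), Slc45a3 (11.26 ± 0.24), Igf2bp2 (11.15 ± 0.24), Cpeb1, Bcl2l10 (10.79 ± 0.17), Plat (10.61 ± 0.44), Gja4 (10.57 ± 0.23), Cpsf4l (10.27 ± 0.21), Spry4 (10.23 ± 0.30) and Gdf9. Zp2 rests on few reads in cumulus cells, since 1 library (complex B2A02) held all 6 counts, and without it Zp2 was at least 37437-fold higher in oocytes. Of the other 9, the ratio of the mean levels moved by more than 1.5 times without 1 cumulus library for Slc45a3, from 2200 to 3601 without complex B2H02, and for Plat, from 1228 to 3152 without B1F06. Plat encodes tissue plasminogen activator, whose message is stored until meiosis resumes, and was at 2087 to 3011 CPM (median 2431) in oocytes and 0 to 39.1 CPM (median 0) in cumulus libraries. Bcl2l10, a relative of BCL2, was at 1208 to 1923 CPM (median 1526) and 0 to 4.65 CPM (median 1.0). Igf2bp2 binds messages and had medians of 838 and 0 CPM. Spry4, an inhibitor of receptor kinase signals, had 1154 and 0.391. The 10 largest towards cumulus cells were in Gm26917 (-11.58 ± 0.34), Slc38a2, Thbs1 (-9.69 ± 0.33), Malat1, Skil (-9.52 ± 0.36), Vcan, Ltbp1 (-9.06 ± 0.22), Mbnl2 (-9.04 ± 0.37), Irs2 and Slc26a7 (-8.99 ± 0.28). Thbs1, a matrix glycoprotein that activates latent TGF-beta, was at 0 to 7.33 CPM (median 1.66) and 729 to 3746 CPM (median 2194). Ltbp1, which tethers latent TGF-beta, and Skil, a repressor of SMAD signals, had cumulus medians of 212 and 651 CPM against 0 and 0 CPM in oocytes. The splicing factor Mbnl2 had 287 against 0 CPM, and none of these ranges met.

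For these genes named in the text, more than 20% of the nonzero values were not whole, because reads that fit several places were divided among them, and these levels are less certain: Ago1, Ago2, Arfgef3, Bcl2l10, Bmp6, Bmpr2, Cars, Ccn2, Ccnb1, Ccnb3, Ccnd2, Cd9, Cdh2, Cdk4, Cdk6, Ddx6, Diras2, Dnmt1, Dnmt3l, Eno1, Esr2, Fdft1, Fgfr1, Fgfr2, Figla, Foxo1, Gm12856, Gm26917, Gpr3, Hmgcs1, Hsd3b1, Il34, Impdh2, Insig1, Irs2, Itga6, Jun, Kcnq1ot1, Ldha, Ldhb, Malat1, Mbnl2, Mki67, Neat1, Nlrp14, Nlrp5, Nlrp9c, Npr2, Nr5a2, Pde3a, Pde5a, Pds5a, Pgk1, Plk1, Rian, Rpl5, Runx1, Slc2a1, Slc45a3, Slc6a9, Smad5, Srp54a, Srp54b, Tdgf1, Tet2, Tet3, Thbs1, Tut7, Uhrf1, Xist, Xlr3a, Ybx2, Zar1, Zbed3, Zfp36l2, mt-Co1, mt-Co2 and mt-Nd3.

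**Figure D2:**
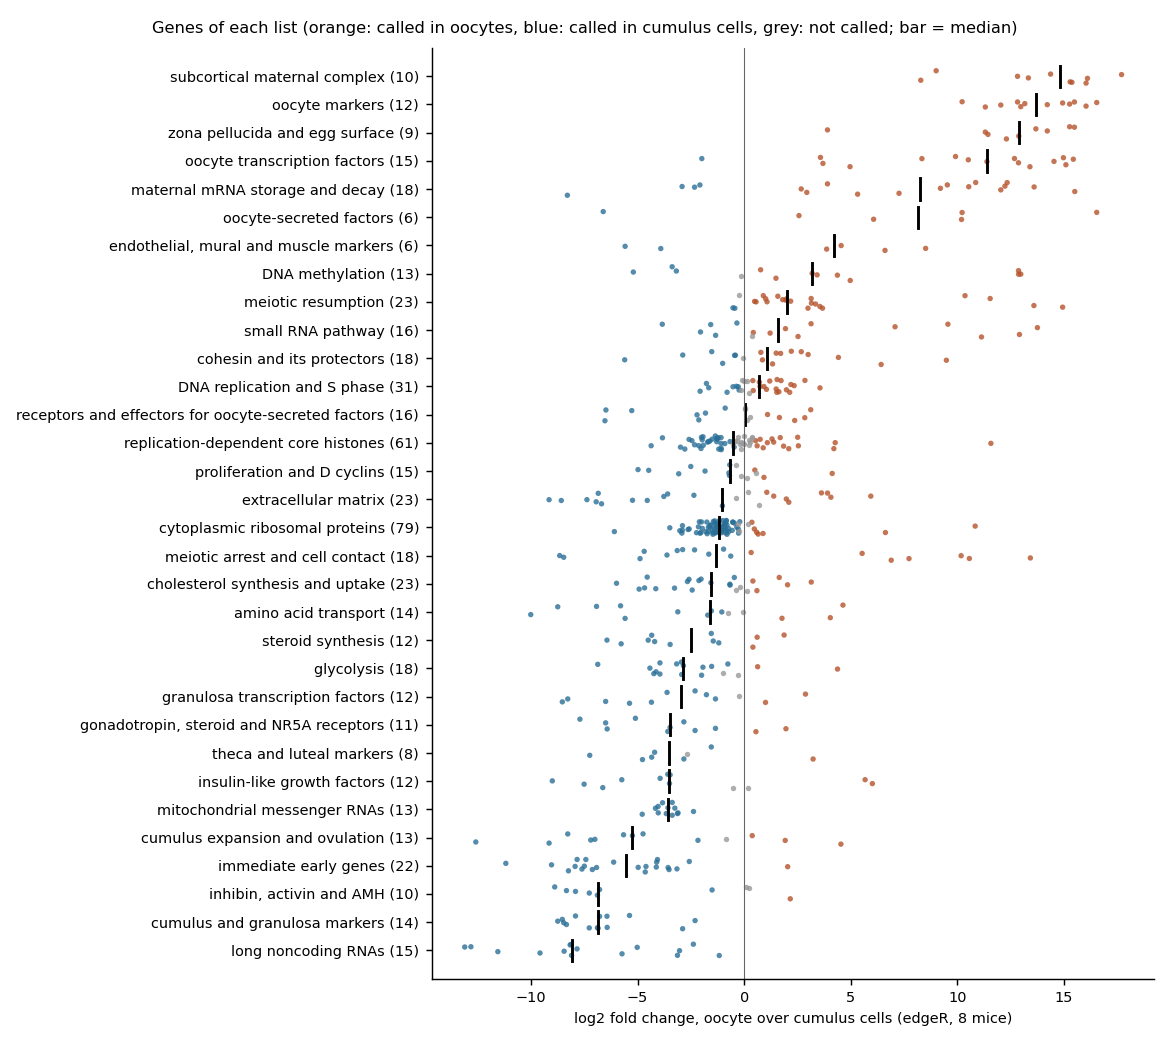
Log2 fold change of the oocyte over cumulus cells for each gene (point) of 32 gene lists, ordered by their median (bar), with the number of genes tested in brackets. Orange points were called higher in oocytes, blue in cumulus cells and grey points were not called, and the lists run from a median of 14.84 for the subcortical maternal complex to -8.10 for long noncoding RNAs (13.03 and -7.84 with genes at 0 in the lower cell type set to their bound), against -0.14 for all genes tested.

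Complexes of 1 mouse differed widely in some granulosa genes and little in others. Inhbb, the beta B subunit of inhibin and activin (GRCm38 chromosome 1, 119415465 to 119422248), ran from 1.98 to 3072 CPM among the 4 cumulus pools of mouse 2moNoH11, from 2.17 to 2744 CPM in 2moNoH9, from 4.4 to 2828 CPM in 2moNoH13 and from 80.6 to 1200 CPM in 2moNoH12. The highest pool of a mouse exceeded its lowest by 14.9 to 1555 times in the 8 mice (median 86.0). The ratio was 22.8 to 628 for Inhba (median 60, 7 mice, since the lowest pool of 2moNoH9 had no count), 5.02 to 27.8 for Hsd3b1 (median 13.4) and 2.91 to 84.0 for Amh (median 9.61). In contrast, it was 1.16 to 2.21 for Gja1, 1.30 to 3.11 for Inha and 1.32 to 2.89 for Npr2. The differences between mice were not called for Inhbb (adjusted p = 0.9 in edgeR), Inhba (0.461) or Amh (0.619).

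Several of these genes moved together with Inhbb across the 32 cumulus pools, and Amh was not among them. The 10 genes and 2 library measures set against Inhbb were chosen after its spread had been seen, levels were taken as log2(CPM + 1) less the mean of the mouse, and p-values come from 100000 permutations within mice, two-sided and adjusted over 12 relations. Inhba followed Inhbb with a Pearson r of 0.93 (adjusted permutation p = 6.0e-05) and a Spearman rho of 0.93 (4.0e-05), and r was 0.92 without the 2 farthest pools. Cyp19a1 gave 0.95 (6.0e-05) and 0.92 (6.0e-05), with 0.93 without those 2 pools, and Hsd17b1 gave 0.93 (6.0e-05) and 0.91 (4.0e-05), with 0.92. Fst (r 0.81, permutation p = 1.2e-04, and rho 0.79, 7.2e-05, and r 0.79 without 2 pools) and Hsd3b1 (r 0.75, 6.0e-05, and rho 0.80, 4.0e-05, and r 0.79) rose with it too. Fshr gave an r of 0.66 (permutation p = 0.00208), a rho of 0.65 (0.00276) and an r of 0.68 without 2 pools, and Inha an r of 0.65 (permutation p = 0.00165), a rho of 0.63 (0.00276) and an r of 0.67. Pools with more of the activin, inhibin and aromatase genes had more of the receptor of follicle-stimulating hormone. Lama1 went the other way, with an r of -0.78 (permutation p = 2.2e-04), a rho of -0.75 (2.2e-04) and an r of -0.75 without 2 pools. Within prefixes B1 and B2, r was 0.96 and 0.90 for Inhba, 0.97 and 0.92 for Cyp19a1, 0.94 and 0.91 for Hsd17b1, 0.89 and 0.36 for Inha and -0.93 and -0.62 for Lama1. Amh, whose spread was also wide, gave an r of -0.40 (permutation p = 0.126) and a rho of -0.35 (0.147), and Sparc -0.35 (0.0862) and -0.32 (0.123). The log2 total count of the library gave an r of 0.03 (permutation p = 0.904) and a rho of 0.12 (0.549), and the mitochondrial share an r of 0.39 (0.126) and a rho of 0.19 (0.385), with -0.40 in B1 and 0.66 in B2. Without the pool of complex B1F06, which had the most endothelial and muscle marker RNA, r was 0.93 for Inhba, 0.94 for Cyp19a1, 0.93 for Hsd17b1 and -0.75 for Lama1.

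**Figure D3:**
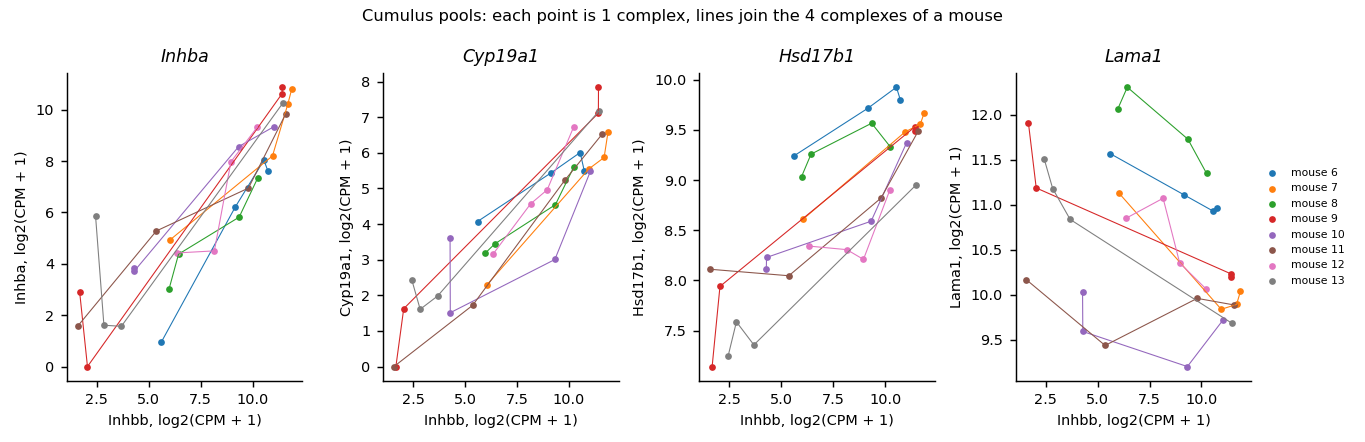
Level of Inhba, Cyp19a1, Hsd17b1 and Lama1 (vertical axes) against Inhbb (horizontal axis) in the 32 cumulus pools, all as log2(CPM + 1), with a colour per mouse and a line through its 4 complexes. The first 3 genes rise with Inhbb in nearly every mouse (r of 0.93 to 0.95 after the mouse means were taken out), and Lama1 falls (r -0.78).

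Mice differed from each other in 3782 of 23968 genes in cumulus cells (15.8%), by edgeR's test over the 4 complexes of each mouse. Since the mice of B1 and B2 cannot be told apart from the prefix, differences were also tested within prefixes, which left 1251 genes (5.22%). Chac1, Slc7a1 and Cars were among the 8 genes with the largest F statistic. Chac1, which breaks down glutathione and is switched on when amino acids run short, had mean levels of 0, 0.535, 17.6 and 37.7 CPM in mice 2moNoH6 to 2moNoH9 and 0, 0.233, 55.6 and 34.5 CPM in 2moNoH10 to 2moNoH13 (adjusted p = 1.33e-08, within prefixes 1.87e-08). In 4 mice the gene was at or near 0 in all complexes, and in the other 4 every complex had counts. Slc7a1, a carrier of cationic amino acids, had means of 99.1, 113, 251 and 276 CPM in mice 2moNoH6 to 2moNoH9 and 64.3, 81.1, 215 and 231 CPM in 2moNoH10 to 2moNoH13 (within prefixes 1.87e-08 in edgeR). Cars, which charges transfer RNA with cysteine, had 49, 39, 131 and 148 CPM in mice 2moNoH6 to 2moNoH9 and 29.5, 50.9, 144 and 118 CPM in 2moNoH10 to 2moNoH13 (within prefixes 1.87e-08 in edgeR). All 3 were high in mice 8, 9, 12 and 13 and low in mice 6, 7, 10 and 11, so the pattern ran across both prefixes. In B1 the high mice had complexes B1A06 to B1H06 and the low mice B1A05 to B1H05. In B2 they had B2A02 to B2H02 and B2A01 to B2H01. Within a prefix, high and low mice thus cannot be told apart from this part of the complex name. Of the list of amino acid carriers, 6 of 14 were called within prefixes, among them Slc7a5, the large neutral carrier, at 277, 368, 395 and 908 CPM and 274, 243, 487 and 567 CPM in the same order of mice (within prefixes 1.21e-04 in edgeR).

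The 250 bases upstream of Chac1 (RefSeq, GRCm38.p6, chr2:119350992-119351241, plus strand) are shown because Chac1 was at or near 0 in some mice and well expressed in others, with the amino acid response motif TGATGNAA, the letters read by ATF4 and its partners, in capitals as it lies on the opposite strand.
Chac1: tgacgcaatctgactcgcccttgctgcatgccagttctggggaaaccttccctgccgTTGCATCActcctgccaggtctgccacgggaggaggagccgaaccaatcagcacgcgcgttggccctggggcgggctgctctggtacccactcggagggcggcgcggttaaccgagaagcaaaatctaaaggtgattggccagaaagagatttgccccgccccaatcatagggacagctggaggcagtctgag

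The match lay 193 to 186 bases before the start. TGATGNAA was in 3.4% of all 32536 promoters of this length and in 2.44% of the promoters of genes tested here.

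Immediate early genes also varied between mice: 10 of 22 were called within prefixes, against 5.22% of all genes tested. Fos had means of 3308, 2039, 1833 and 839 CPM in mice 2moNoH6 to 2moNoH9 and 2972, 2438, 399 and 805 CPM in 2moNoH10 to 2moNoH13 (within prefixes 0.00537 in edgeR). Dusp1 had 175, 97.5, 27.4 and 16.8 CPM and 121, 73.5, 5.99 and 14.4 CPM in the same order (4.48e-06), Jun 1046, 813, 983 and 591 CPM and 957, 921, 294 and 289 CPM (0.00168) and Ccn2, a target of YAP also called CTGF, 9.16, 31, 61.5 and 228 CPM and 42.6, 39.3, 203 and 199 CPM (0.00274), each from edgeR within prefixes. Fos, Dusp1 and Jun had their highest mean in mouse 2moNoH6, and Ccn2 had its lowest mean there. Fos and Dusp1 were higher, and Ccn2 lower, in the mice low in Chac1 than in the other mice of their prefix. As for Chac1, these differences within a prefix cannot be told apart from that part of the complex name. Foxo1, a factor restrained by insulin signals, had 569, 1317, 333 and 614 CPM and 1325, 1045, 673 and 614 CPM (2.97e-07) and Kitl 101, 36, 143 and 93.8 CPM and 30.2, 44.3, 73.2 and 125 CPM (3.47e-04). Of the other genes with the largest F statistic, Fscn1, which bundles actin, had 591, 312, 505 and 278 CPM and 152, 159, 168 and 126 CPM and Itprid2 75, 94.4, 97.6 and 317 CPM and 121, 145, 421 and 263 CPM. Kazn had 93.4, 64.3, 197 and 90.7 CPM and 23.4, 38, 74.1 and 54.9 CPM. Rpl5 (219, 278, 233 and 262 CPM and 475, 477, 468 and 508 CPM) and mt-Co2 (710.3, 756, 808 and 684 CPM and 1845, 1828, 1991 and 2748 CPM) separated by prefix and were not called within prefixes (adjusted p in edgeR 0.599 and 0.455). For DNA replication 7 of 31 genes, for meiotic resumption 5 of 23 and for the matrix 4 of 23 were called within prefixes, against the same 5.22%.

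The oocytes of the same complexes were not called for Chac1, Slc7a1 and Cars. Mean levels per mouse ran over 1.5 to 4.8 CPM for Chac1 (adjusted p between mice = 0.781 in edgeR), 55.3 to 72 CPM for Slc7a1 (0.597) and 50.3 to 61.9 CPM for Cars (0.895). Dusp1 ran over 143 to 186 CPM (0.871) and Foxo1 over 518 to 617 CPM (0.465). Fos was called in oocytes (6.88e-04) with means of 9.04 to 19 CPM in prefix B1 and 0.673 to 4.93 CPM in B2, and was not called within prefixes (0.945 in edgeR). Deviations of the oocyte and of the cumulus cells of a complex correlated weakly: over 16819 genes the correlation of their deviations from the means of their cell type had a median of 0.043, against 0.032 with other complexes of the mouse, 0.025 with other mice of the prefix and -0.028 with complexes of the other prefix. Among the 32 cumulus libraries, that of the own complex gave the highest correlation for 7 of 32 oocytes.

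Between mice, 358 of 23513 genes were called in oocytes (1.52%), and 5 within prefixes (0.0213%), with 1173 at an unadjusted p under 0.05 in edgeR. DESeq2's likelihood ratio test called 721 genes without the prefix. Without mouse 2moNoH8 or 2moNoH10 161 genes were called, and without 2moNoH11 192. These 5 were Ccnd2, Srp54a, Srp54b, Nfkbie and Gm26917. Oosp2, which encodes a protein secreted by the oocyte, had means of 77.3, 79.5, 59.6 and 85.3 CPM in mice 2moNoH6 to 2moNoH9 and 156, 144, 141 and 144 CPM in 2moNoH10 to 2moNoH13, and its adjusted p in edgeR rose from 4.49e-13 to 0.79 within prefixes. Ccnd2 had 129, 46.1, 111 and 13.8 CPM and 9.1, 16.1, 15.5 and 9.16 CPM in the same order (0.00686 within prefixes in edgeR), and Inha had 46.8, 27.4, 39.7 and 21.1 CPM and 9.8, 4.59, 7.23 and 5.13 CPM (0.862). These are cumulus genes, and the oocyte mean of Ccnd2 was 2.46 to 11.6% of the cumulus mean of the mouse in B1 and 1.66 to 2.99% in B2, that of Inha 0.762 to 1.39% and 0.188 to 0.318% and that of Gja1 0.273 to 0.700% and 0.0418 to 0.162%. Fst parted by prefix as well, with a share of 0.1815 to 0.528% in B1 and 0.01755 to 0.115% in B2. Malat1 and Slc38a2 did not part in this way. Their shares were 0.0622 to 0.199% in B1 and 0.0563 to 0.234% in B2 for Malat1 and 0.0589 to 0.193% and 0 to 0.154% for Slc38a2. The oocyte libraries of B1 also had the higher sum of cumulus markers, 73.4 to 145 CPM without Inha (Nr5a2 included) against 61.9 to 96.1 CPM in B2. The part of RNA from adhering cumulus cells in these differences was not tested. Nlrp9c, Gm12856, Rpl5 and Xlr3a were among the 8 with the largest F statistic too, and none was called within prefixes.

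**Figure D4:**
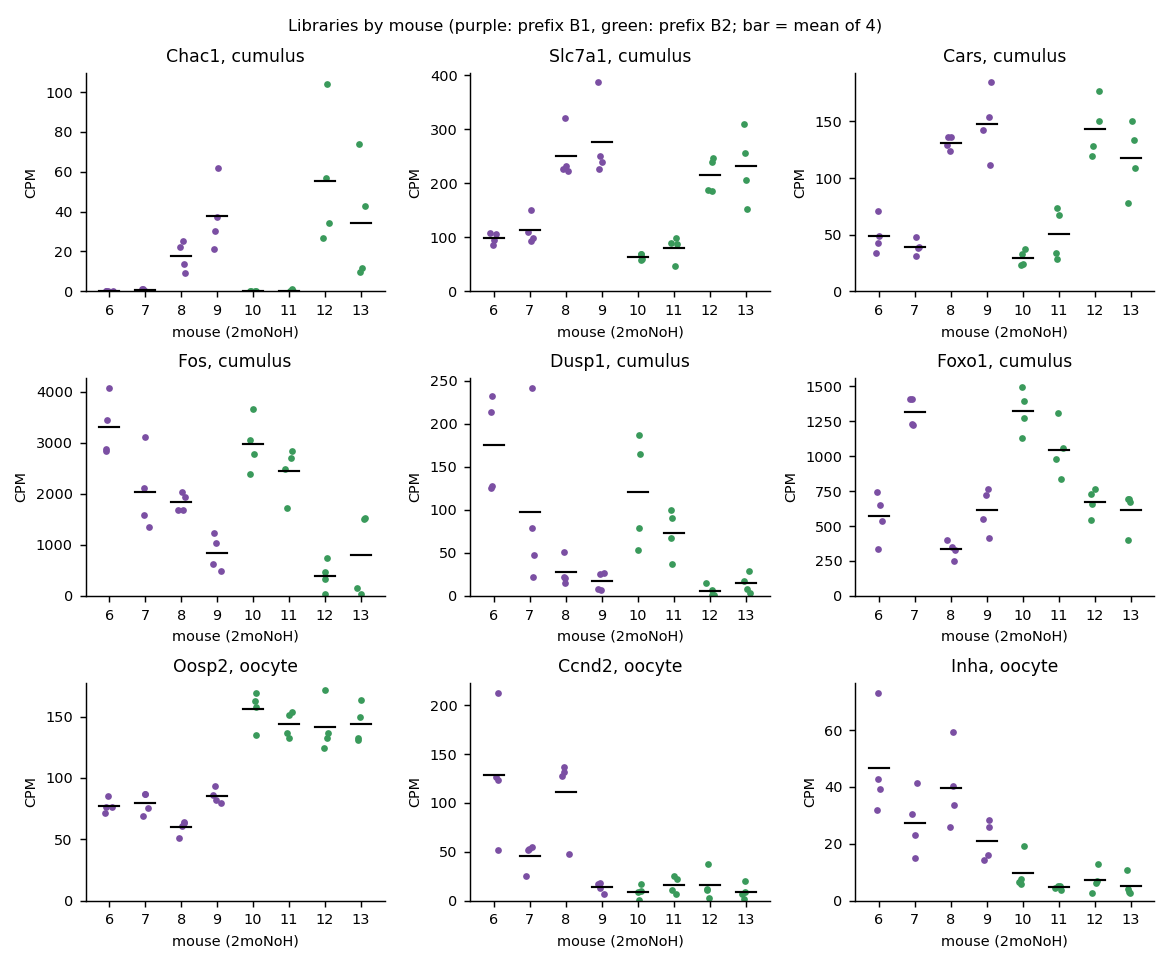
Level in CPM (vertical axis) of 6 genes in the cumulus libraries and 3 genes in the oocytes of each mouse (horizontal axis, number of the label), with a point per library, a bar at the mean of 4 and the prefix of the complex name in colour. Chac1, Slc7a1 and Cars are high in mice 8, 9, 12 and 13, and Oosp2 and Inha in oocytes differ between both prefixes.

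Whether the difference between oocyte and cumulus cells differed by hyperovulation was tested as an interaction with the group that had received it. Within each prefix, complexes without and with hyperovulation had different end numbers in their names, such as B1A05 and B1A01. Hyperovulation thus cannot be told apart from this part of the complex name. Of 32143 genes, 78 were called (0.243%), 26 with a higher oocyte over cumulus ratio without hyperovulation and 52 with a lower one, and 2278 had an unadjusted p under 0.05 in edgeR. In all 78 genes the mean cumulus level moved more than the mean oocyte level, by a median of 1.13 against 0.11 in log2(CPM + 1), and no mean oocyte level moved by more than 0.48. DESeq2 called 204 genes, and edgeR on single libraries with the complex as a replicate block called 952, treating libraries of 1 mouse as independent. The mouse label 2mo34 held 8 of the 24 complexes with hyperovulation, and 28 genes were called without it. Without mouse 2moNoH8 51 genes were called, without 2moNoH7 119 and without 2moNoH6 128.

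Among genes called with a mean of at least 10 CPM in 1 of the 4 groups, the 5 largest differences in each direction had the larger change of the mean in cumulus cells. Frmd5 was at 4.6 to 65.1 CPM (median 17.5) in cumulus libraries without hyperovulation and 24.7 to 135 CPM (median 75.8) with it, and had medians of 19 and 16.2 CPM in oocytes. The difference between the log2 fold changes was 1.88 ± 0.24 (adjusted p = 0.00113 in edgeR). Hephl1, a ferroxidase, was at 0 to 28.3 CPM (median 2.11) and 0 to 60.7 CPM (median 21.1) (1.91 ± 0.34, edgeR 0.0129), and Afap1l2 at 0 to 12.7 CPM (median 1.7) and 0.991 to 45.4 CPM (median 10.3) (1.98 ± 0.40, edgeR 0.0286). Each was lower in the cumulus cells of mice without hyperovulation. Diras2 and Arfgef3 had cumulus medians of 0 and 0 CPM without and 1.28 and 1.11 CPM with hyperovulation, with oocyte medians of 139.8 and 151 CPM, so their differences rest on a few counts in cumulus cells (edgeR 0.00655 and 0.0369).

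Genes higher in cumulus cells without hyperovulation included Prss30, a serine protease, at 0 to 50.6 CPM (median 5.82) against 0 to 3.42 CPM (median 0) with it (-3.90 ± 0.64, edgeR 0.00756). Mlf1 was at 7.43 to 91 CPM (median 31.3) against 3.13 to 22 CPM (median 9.13) (-2.13 ± 0.37, edgeR 0.00962), and Col12a1, a fibril-associated collagen, had medians of 4.03 and 0.466 CPM (-3.75 ± 0.77, edgeR 0.0332). Il34, a ligand of the CSF1 receptor, was at 0 to 5.08 CPM (median 0) in cumulus libraries without hyperovulation and listed at 0 in every library with it, and Adgrb3, an adhesion receptor, had medians of 0.981 and 0 CPM (edgeR 0.0223 and 0.017). The coefficients of genes at 0 are no bounds. Without 2mo34 the calls of Arfgef3, Afap1l2, Hephl1, Il34, Adgrb3, Prss30 and Mlf1 were lost, and Col12a1 lost its call in several fits.

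Members of the gene lists were also among the 78. The glycolytic genes Pgk1 and Eno1 were lower in cumulus cells without hyperovulation, with medians of 91.1 and 196 CPM (1.01 ± 0.18, edgeR 0.013) and of 317 and 659 CPM (0.88 ± 0.19, edgeR 0.0439), and most values of both were not whole. Lama1 was higher, at 586 to 5094 CPM (median 1547) against 671 to 1261 CPM (median 884) (-0.94 ± 0.19, edgeR 0.0307), and so was the immediate early gene Nr4a2, with medians of 19.8 and 10.7 CPM (-1.97 ± 0.34, edgeR 0.00962). No gene of the oocyte lists or of the hormone receptor, steroid, inhibin or meiotic arrest lists was called. Of all genes, 0.243% were called, and at that share lists this short would mostly hold no called gene. The absence of calls is therefore no result about these lists.

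**Figure D5:**
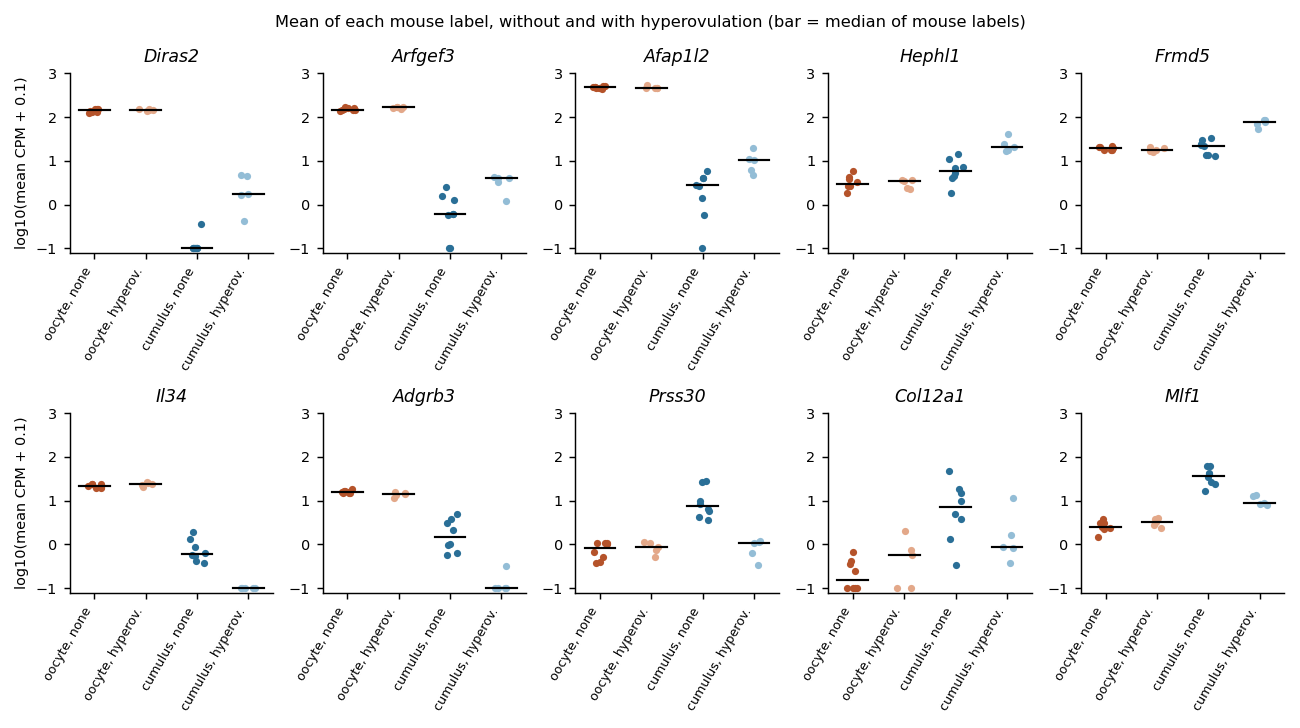
Mean level of each mouse label, as log10(CPM + 0.1), for the 10 called genes with the largest differences by hyperovulation (5 in each direction) among those with a mean of at least 10 CPM in 1 of the 4 groups, in oocytes (orange) and cumulus cells (blue), without and with hyperovulation (darker and lighter), with a bar at the median of mouse labels. Oocyte levels lie side by side in both groups and the cumulus levels part, as for Frmd5 with medians over libraries of 17.5 and 75.8 CPM.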

How the data were processed

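Oocytes and cumulus cells were profiled by RamDA-seq. The authors cleaned the reads with Fastq-mcf, aligned them with HISAT2 (2.0.5) to GRCm38 and assigned them to genes of GENCODE vM15 with featureCounts (1.5.1), where a read with several hits was split among them. The deposited expected count values held 2 decimals at most and 35.2% of the nonzero ones were not whole (tolerance 1e-06), so they were rounded for the tests, which had been planned for whole counts. The RPKM values were calculated by the authors from counts and gene lengths, and 100% of those recalculated from the deposited counts matched within 0.001. Symbols and coordinates of 42147 of 42349 genes were taken from GENCODE vM21 on GRCm38. Reads carry no molecular identifiers, so floors and bounds cover counting error only.

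Groups were taken from the sample labels. Counts were summed per mouse and cell type, since 4 complexes shared a mouse, and tested with edgeR 4.0.16 in R 4.3.3 by the quasi-likelihood F test (two-sided, TMM scaling) with the mouse as a block. Genes counted in 5 libraries or more entered, and an adjusted p under 5% was called. The pairing comes from the labels, which give the mouse and complex of each library. Deviations of an oocyte and its own cumulus cells from the means of their cell type correlated with a median of 0.043 (lowest -0.035). Differences between mice were tested over libraries within a cell type, and the effect of hyperovulation as the interaction with cell type. No pair of libraries was a duplicate, as the highest correlation was 0.9865. A fold against a group without counts was calculated against a floor of 3 counts over the group, 0.0533 CPM for oocytes and 0.0969 CPM for cumulus libraries. Alternatives were DESeq2 1.42.0, other scalings and filters, single libraries with the complex as a block, no block, either prefix alone and each mouse left out. Chosen after seeing the data were the prefix as a term, the fit without label 2mo34, the relations with Inhbb and the left-out single cumulus libraries.

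On simulated counts with 200 genes changed, the fit of oocytes against cumulus cells recovered 198 genes with 44 false calls among 29556 genes, the one between mice 168 with 23 false in cumulus cells (23856 genes) and 199 with 37 in oocytes (23421 genes), and that of hyperovulation 190 with 62 false (31651 genes), so false calls exceeded the nominal 5% each time. At 2-fold, 68 of 100 genes were recovered between mice in cumulus cells and 90 of 100 for hyperovulation.

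The samples and the 34 gene lists (614 entries, 612 found) were chosen with earlier results of these data known. Genes named are members of these lists, with those of the largest difference in each direction and a known role preferred, the 10 largest differences in each direction with a mean of at least 10 CPM in the higher cell type, over 3 counts in a library of the lower one and the same direction in all 32 complexes, the 8 genes with the largest F between mice in each cell type with that mean, and the 5 largest called differences by hyperovulation in each direction with a mean of at least 10 CPM in 1 of the 4 groups. Figures were drawn with matplotlib 3.10.9 from tables made with pandas 2.3.3 and numpy 2.4.6 in Python 3.11.15. Promoters were taken from RefSeq, with those of chromosome 18 left out. Some genes that these rules name are not reported here.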

Additional observations from a re-analysis of the deposited data

Results flagged for a closer look

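The difference between oocyte and cumulus cells differed between mice without and with hyperovulation, by edgeR's test of the interaction, for these genes named in the report. On the log2 scale it was higher without hyperovulation by 5.29 for Diras2, 2.02 for Arfgef3, 1.98 for Afap1l2, 1.91 for Hephl1, 1.88 for Frmd5, 1.01 for Pgk1 and 0.88 for Eno1. The value was -0.94 for Lama1, -1.97 for Nr4a2, -2.13 for Mlf1, -3.75 for Col12a1, -3.90 for Prss30, -4.81 for Adgrb3 and -5.23 for Il34. Mice without and with hyperovulation were different animals, 8 and 5 labels, and 8 of 24 complexes of the second group carried the label 2mo34. Within each prefix the complex names of both groups also ended in different numbers, which cannot be told apart from hyperovulation.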

How the results depend on the processing

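The number of genes called between oocytes and cumulus cells stayed within 1.5 times of 23866 in every alternative, from 18171 of 19846 genes with edgeR's filterByExpr to 24833 with no replicate block. Single libraries with the complex as a replicate block called 24252 genes and DESeq2 20794, and with each mouse left out 23163 to 23222 genes were called. Without scaling between libraries, 40.6% of the calls were higher in oocytes against 47.3%, and the median log2 fold change of all genes moved by -0.46 (DESeq2 -0.21, no filter 0.14, prefix B2 alone 0.11). With library totals the log2 fold change became -0.44 for Bmpr1a, -0.45 for Bmpr1b, -0.35 for Smad4, -0.16 for Rgs2, -0.11 for Egfr, -0.34 for Mki67 and -0.46 for Frmd5, and for Rgs2 it was -0.08 with the complexes of prefix B2 alone. In the other named genes no direction changed where the gene was called in either fit. A change of sign in a gene called in neither fit was not counted. The median of the receptors and effectors was near 0 and its sign depended on the setting (-0.45 with library totals). Between mice in cumulus cells, the 3782 genes called became 1251 within prefixes and 2577 to 3792 with each mouse left out. Between mice in oocytes, the 358 genes became 5 within prefixes, 721 with DESeq2 and 161 to 424 with each mouse left out (161 without 2moNoH8 or 2moNoH10, 192 without 2moNoH11). For hyperovulation, the 78 genes became 204 with DESeq2 (69 shared), 952 on single libraries with the complex as a replicate block (78 shared), 47 with no replicate block, 187 with the prefix by cell type as a term (77 shared), 28 without the label 2mo34 (28 shared) and 51 to 128 with each mouse without hyperovulation left out. The causes of these changes were not tested. The cumulus libraries were the shallower ones, and genes at a few counts in them are known least precisely.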
